A study of Mus musculus with 21 samples.

Results

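The genes that load peptides on major histocompatibility complex (MHC) class I molecules were measured in single muscle fibers of 2 metabolic types. They are B2m, H2-K1, H2-D1, Tap1, Tap2, Tapbp, Calr and Pdia3, and every array probe annotated with 1 of these gene names was taken, which gave 9 probes for 8 genes out of 55681 probes on the array. The 8 genes were selected with their difference between fiber types already known, so that difference is described here without a test. Type 1 myofibers (slow, oxidative; n = 11) came from the soleus and type 2B myofibers (fast, glycolytic; n = 10) from the extensor digitorum longus (EDL), all dissected from untreated, 3 month old CD1 mice, an outbred strain. The labels call the mice male, whereas the study's methods describe females. Each type was taken from 6 of the 9 mice and 3 mice, numbered 3, 4 and 9, gave both. Fiber type and muscle cannot be told apart, since each type came from 1 muscle. Each fiber's RNA was amplified by PCR and hybridised to its own single-color array. All signals below are log2 values after quantile normalization.

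A class I molecule is a heavy chain, such as the products of H2-K1 and H2-D1, held together with beta-2-microglobulin, the product of B2m, and a short peptide. Proteasomes cut the peptides in the cytosol, the transporter formed by Tap1 and Tap2 pumps them into the endoplasmic reticulum, and tapasin (Tapbp), calreticulin (Calr) and the disulfide isomerase ERp57 (Pdia3) hold the heavy chain open until a peptide fits. Resting adult muscle fibers are known for low surface class I, which rises in inflammatory muscle disease.

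The heavy chain and B2m promoters are known for a shared set of short elements, shown here because B2m and H2-D1 differed in opposite directions between the fiber types. The 250 bases before the start of each gene were taken from RefSeq (GRCm38.p6), 5′ to 3′ in the direction of transcription, where 7 of the 8 genes had an entry. Capitals mark matches on either strand to CCAAT (the box bound by NF-Y), TGACG (part of the site of ATF and CREB factors), GAAANNGAA (the repeat of interferon response elements) and GGGNNNNCC (part of NF-kappaB sites), where neighbouring matches to the last motif overlap.
B2m, chr2:122147437-122147686, plus strand: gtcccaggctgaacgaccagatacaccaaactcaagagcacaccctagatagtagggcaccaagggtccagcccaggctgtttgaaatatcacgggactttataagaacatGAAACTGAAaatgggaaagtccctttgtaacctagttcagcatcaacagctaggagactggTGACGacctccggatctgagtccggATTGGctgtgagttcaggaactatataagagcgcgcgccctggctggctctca
H2-D1, chr17:35262844-35263093, plus strand: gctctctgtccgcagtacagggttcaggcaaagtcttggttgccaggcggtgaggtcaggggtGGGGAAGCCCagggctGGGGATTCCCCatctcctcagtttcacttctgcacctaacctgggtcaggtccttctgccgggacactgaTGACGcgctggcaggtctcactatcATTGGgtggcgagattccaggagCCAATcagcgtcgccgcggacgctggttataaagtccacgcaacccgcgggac
H2-K1, chr17:34000348-34000597, minus strand: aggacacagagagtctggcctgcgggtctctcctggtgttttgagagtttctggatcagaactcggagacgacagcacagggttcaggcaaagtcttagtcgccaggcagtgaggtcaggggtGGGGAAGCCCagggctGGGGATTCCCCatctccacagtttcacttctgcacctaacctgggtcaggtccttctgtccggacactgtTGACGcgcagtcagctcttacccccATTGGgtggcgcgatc

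All 3 stretches held the CCAAT box and the ATF and CREB motif, which occurred in 33.8% and 17.8% of the 32851 promoter stretches of this length. The interferon-type repeat was matched in B2m, 139 bases before the start, and occurred in 7.13% of all stretches. H2-K1 and H2-D1 both held tttcacttc. On the other strand it has the parts of that repeat in swapped order, which the repeat's pattern does not match. The matches therefore do not show that B2m alone of the 3 holds an interferon-type element. H2-K1 and H2-D1 held the NF-kappaB-type motif, found in 38.7% of all stretches, in 2 separate blocks each. B2m held gggaaagtcc, which has the same ends with 1 more base between them and which this pattern does not match. RefSeq gives H2-K1 a second start close by, whose stretch held the same motifs and 1 more CCAAT box. Of the other members, Tap1, Tapbp, Calr and Pdia3 all held the CCAAT box, Tap1 and Pdia3 the ATF and CREB motif, and Tap1 and Calr the NF-kappaB-type motif. Aligned without gaps, H2-K1 and H2-D1 were identical at 87.4% of 190 bases, with an unbroken shared run of 47 bases, against a longest shared run of 8 bases between either of them and B2m. A match is only a match of letters, a missing match does not show that an element is absent, and no binding was measured.

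Between 38.6% and 79.2% of probes were well above background per array, and the arrays lay on 6 slides, of which slides 1, 2 and 3 held both types. The myosin genes were read as a check of the labels. The fast heavy chain Myh4 was between 14.42 and 15.81 in the type 2B fibers and at most 8.61 in those labelled type 1, and the slow heavy chain Myh7 was 15.53 or more in 10 of the 11 fibers labelled type 1. The remaining one, S6.4, read 9.22 for Myh7 and 6.01 for Myh4, so neither myosin was high and its type 1 label was not borne out by Myh7. S6.4 was kept under its label, and it is 1 of the type 1 fibers in every value below. Without it the differences, type 2B minus type 1, were -1.27 for B2m, 1.52 for H2-D1, -0.98 for Pdia3, 1.21 for Tapbp, -0.29 for Calr, 0.02 for Tap1 and -0.03 for Tap2. For the 3′ and the second H2-K1 probe they were 0.63 and -0.22.

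**Figure D1:**
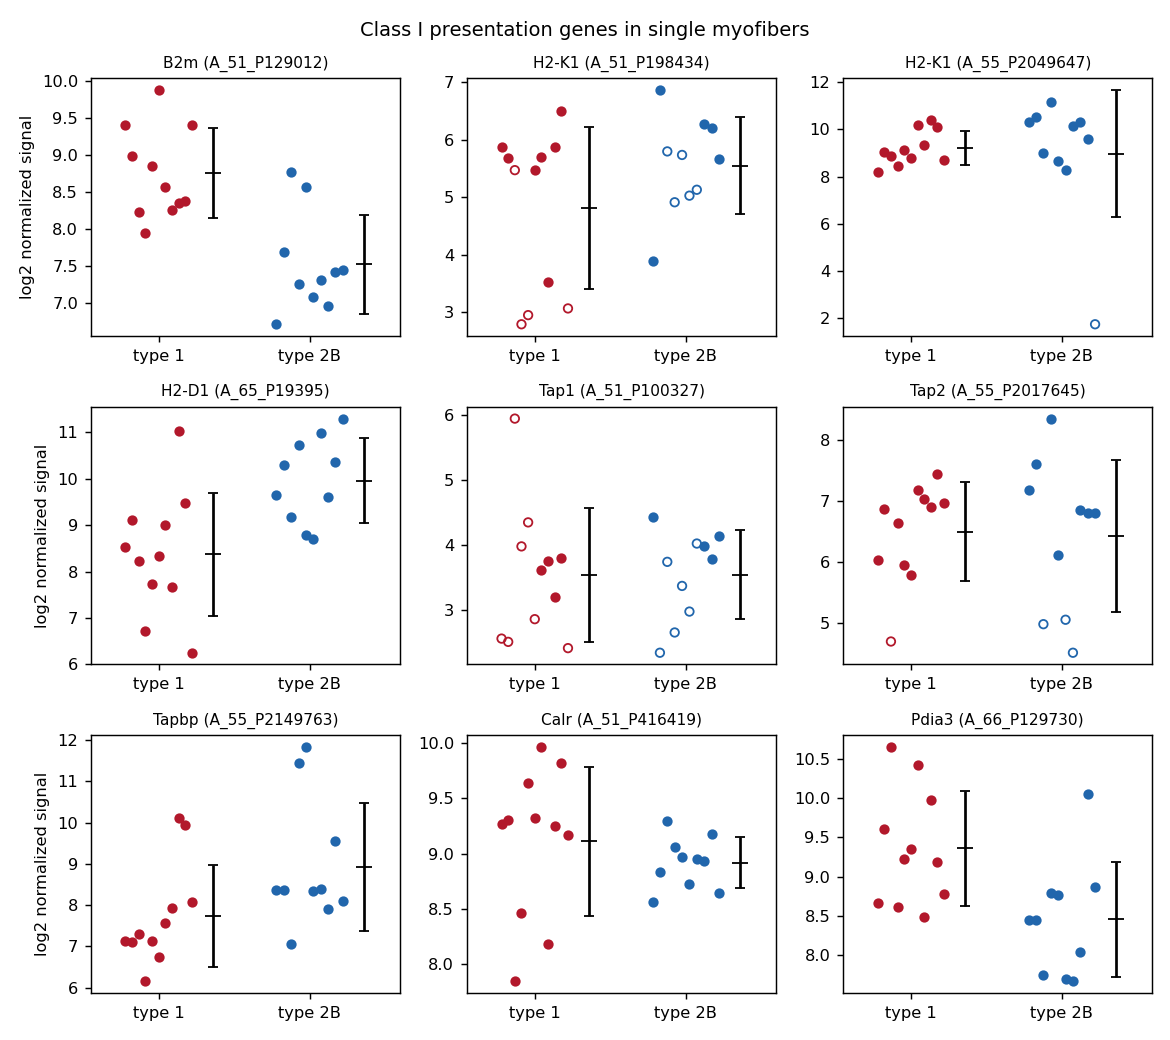
Log2 normalized signal of the 9 probes in each myofiber (points; type 1 red, n = 11; type 2B blue, n = 10), with open points for fibers not well above background, and mean and SD beside them. Of the 10 type 2B fibers, 8 sit below every type 1 fiber for B2m, and 7 of the 11 type 1 fibers sit below every type 2B fiber for H2-D1.

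B2m, the shared light chain, had 1 probe printed in 2 spots (mm9 chr2:121978401-121978460), well above background in all 21 fibers. In type 1 fibers its lowest, median and highest levels were 7.95, 8.56 and 9.88, and in type 2B fibers 6.71, 7.37 and 8.78. Of the 10 type 2B fibers, 8 lay below every type 1 fiber, and E12.5 and E14.3, at 8.78 and 8.57, lay inside the type 1 range. The difference, type 2B minus type 1, was -1.22 ± 0.28 (SE), or 2.33-fold more signal in type 1. With each mouse's fibers averaged, the levels were 8.84 ± 0.35 (SD over 6 mice) in type 1 and 7.46 ± 0.46 in type 2B. The 2 spots differed with a median SD of 0.156 within an array, against an SD of 0.64 between fibers of a type. Other cells that cling to a fiber also hold B2m, and fewer such cells and less RNA per cell cannot be told apart in the RNA of a whole fiber.

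The B2m difference is also given by mouse and by slide, as a description of the same fibers on which the gene was chosen. Within mice 3, 4 and 9 it was -1.37, -2.12 and -0.87. Within slides 1, 2 and 3 it was -1.25, -0.996 and -1.73.

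The probe of H2-D1, a classical heavy chain, ran the other way. This probe (mm9 chr17:35403886-35403945), well above background in all 21 fibers, read 6.25, 8.33 and 11.03 as the lowest, median and highest in type 1, and 8.70, 9.97 and 11.296 in type 2B. Thus 7 fibers labelled type 1, S6.4 among them, lay below every type 2B fiber, while 1 type 1 fiber, S7.2, lay above all but the brightest type 2B fiber. The difference was 1.59 ± 0.47 (SE), or 3.02-fold more signal in type 2B. It was positive within mice 3, 4 and 9 (0.78, 2.69 and 1.30) and within slides 1, 2 and 3 (0.93, 0.37 and 2.83).

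H2-K1, the other classical heavy chain, had 2 probes that gave unlike pictures. The one in the 3′ part of the transcript, printed in 10 spots (A_51_P198434, mm9 chr17:34133055-34133114), was well above background in 7 of 11 type 1 and 5 of 10 type 2B fibers, with levels of 2.79, 5.47 and 6.51 (lowest, median, highest) in type 1 and 3.89, 5.70 and 6.87 in type 2B. Its difference was 0.77 ± 0.49 and the groups overlapped, with 4 type 1 fibers below all type 2B fibers. Without mouse 2, which gave 2 of those 4, it was 0.40. The other (A_55_P2049647, 1 spot, mm9 chr17:34133984-34134043) lies in the stretch that encodes the membrane-spanning end of the protein and read 8.21, 9.05 and 10.39 in type 1. In type 2B its lowest, median and highest levels were 1.75, 9.85 and 11.18, the lowest being fiber E9.6.

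The E9.6 value came from a dark place on its array. The H2-K1 spot there had a mean signal of 16.4, below its local background of 30, as the single one of 588 member spot readings under 0.6 of its local background. Of the 20 gene spots within 2 rows and columns, 5 were also under that limit, against 0.612% of spots over that array and between 0 and 10 spots on each of the other arrays. Without E9.6 the lowest type 2B level was 8.29 and the difference changed from -0.23 ± 0.78 to 0.57. The 3′ probe of H2-K1 read 5.66 in E9.6 and H2-D1 read 11.296, the highest of all fibers.

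Heavy chain genes arose by duplication and share long stretches, which a 60-base probe can meet in more than 1 transcript. Among all array probes, 2 shared a run of at least 20 bases with a member probe, and both shared it with the second H2-K1 probe. They are H2-T23, which encodes the non-classical heavy chain Qa-1 (29 bases), and LOC100044874 (22 bases; mm9 chr17:35403221-35403458, near the H2-D1 probe). The H2-K1 and H2-T23 probes are printed as on the array, the shared run in capitals.
H2-K1 probe, mm9 chr17:34133984-34134043: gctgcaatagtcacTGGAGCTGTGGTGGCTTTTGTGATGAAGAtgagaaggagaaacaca
H2-T23 probe, mm9 chr17:36167338-36167574: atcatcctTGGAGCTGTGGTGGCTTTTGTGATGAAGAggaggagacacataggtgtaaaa

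Over the 20 fibers without E9.6, with type means subtracted, the H2-K1 probe correlated with H2-T23 at r = 0.907 and with LOC100044874 at 0.833; with E9.6 kept, these were 0.352 and 0.307. Both H2-K1 probes correlated with each other at only 0.199 without E9.6. The signal of the second H2-K1 probe is therefore not attributed to H2-K1 alone, and the part of shared sequence in it was not tested. No other member probe shared 20 bases with another probe of the array, but that search sees only sequences placed on the array. The H2-D1 probe, which shared no such run, correlated over the 21 fibers with the probes of H2-Q7 (A_55_P1978511), H2-Q2 and H2-Q6 at r = 0.965, 0.742 and 0.692, the first of them higher than H2-K1 with H2-T23. Whether these probes meet the same transcripts or their genes vary together was not tested. The signal of the H2-D1 probe is therefore not attributed to H2-D1 alone either.

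**Figure D2:**
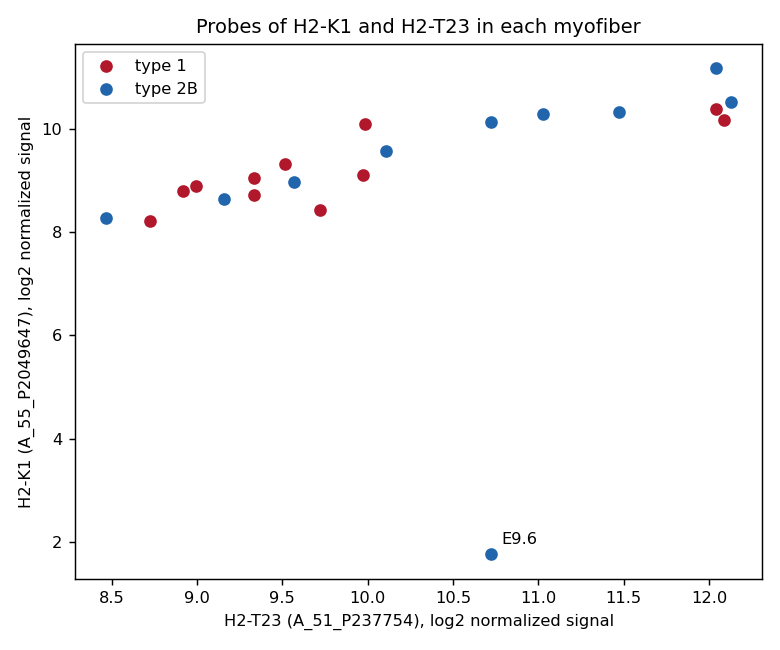
Log2 normalized signal of the second H2-K1 probe against the H2-T23 probe, 1 point per myofiber (type 1 red, type 2B blue). Apart from E9.6, at 1.75 on the H2-K1 axis, the 20 other fibers lie along a line (r = 0.907 after subtracting type means).

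Of the 2 transporter chains, Tap1 was dim on these arrays and Tap2 less so. Tap1 (10 spots, mm9 chr17:34330854-34330913) was well above background in 4 of 11 type 1 and 4 of 10 type 2B fibers, all 8 of them on slide 1, with levels from 2.41 to 5.95 and from 2.34 to 4.43, which overlapped. Its difference was 0.00 ± 0.38. Tap2 (1 spot, mm9 chr17:34353116-34353175) was well above background in 10 and 7 fibers. It read 4.69, 6.86 and 7.44 (lowest, median, highest) in type 1 and 4.51, 6.80 and 8.35 in type 2B, a difference of -0.08 ± 0.43. An effect of the size of these errors, or somewhat larger, was not detectable in these arrays.

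The loading proteins divided. Tapasin (Tapbp; mm9 chr17:34065963-34066022) read 6.16, 7.29 and 10.103 in type 1 and 7.06, 8.37 and 11.83 in type 2B. Its difference was 1.20 ± 0.57, though it was -0.40 within slide 1 and 2.87 and 2.31 within slides 2 and 3, and the 2 highest values, 11.83 and 11.44, both came from mouse 3 (fibers E14.3 and E13.3). Without mouse 3 the Tapbp difference was 0.66. Pdia3 (mm9 chr2:121263343-121263402) read 8.49, 9.23 and 10.65 in type 1 and 7.67, 8.45 and 10.05 in type 2B, with 6 type 2B fibers below every type 1 fiber. The Pdia3 difference was -0.90 ± 0.32, negative within all 3 mice (-1.40, -0.18 and -1.98) and all 3 slides (-0.66, -1.42 and -0.57).

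Calreticulin (mm9 chr8:87366192-87366251) read 7.85, 9.27 and 9.96 in type 1 and 8.57, 8.94 and 9.30 in type 2B. The means were 0.19 apart (difference -0.19 ± 0.24), within the spread of either group, and the type 2B fibers (SD 0.23) all lay inside the range of the type 1 fibers (SD 0.67).

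**Figure D3:**
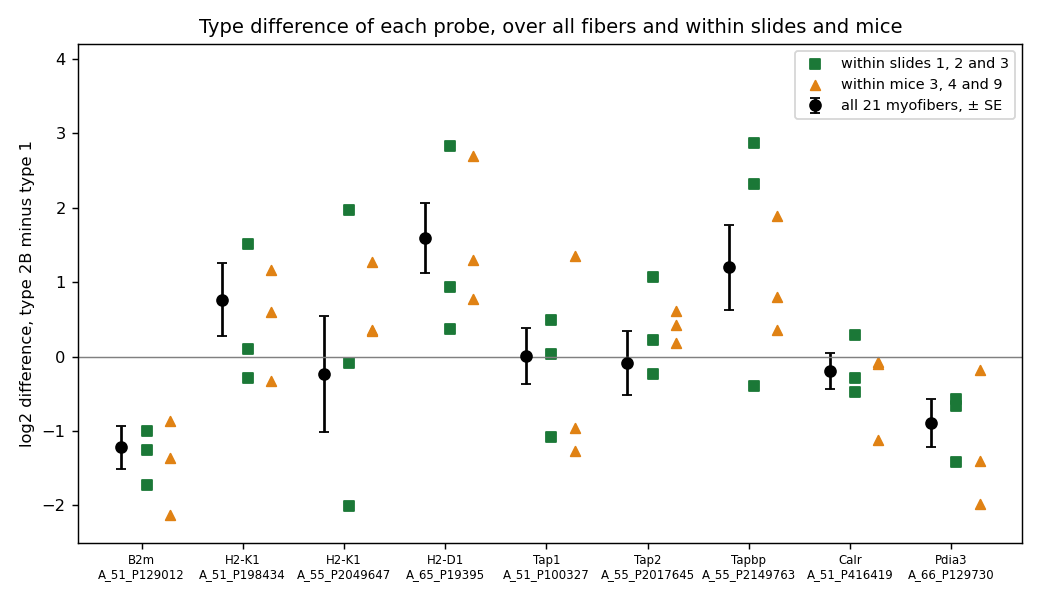
Log2 difference, type 2B minus type 1, of each probe over all fibers (black, ± SE), within the 3 slides that hold both types (green squares) and within the 3 mice that gave both (orange triangles). B2m and Pdia3 stay below 0 and H2-D1 above 0 in all of these, whereas the H2-K1, Tap1, Tap2, Tapbp and Calr points fall on both sides of 0.

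Of all probes tested, 1.43% passed limma's moderated test of fiber type at a Bonferroni-adjusted 0.05 and 7.57% at a Benjamini-Hochberg-adjusted 0.05. Of the 9 member probes, 0 passed the first and 2 passed the second, B2m and H2-D1, while 4 were at an unadjusted p under 0.05, as were 18.5% of all probes tested. Since the genes were selected on this contrast, nothing is read from those counts. The median difference of the 9 probes was -0.08, against 0.03 over all probes tested.

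Whether the levels followed the animal or the slide was tested, as neither entered the choice of genes. Mice 6, 7, 8 and 10 gave 1 fiber each, and for these the test cannot tell the animal from the fiber. For mouse, 0.841% of all probes passed limma's F-test at a Benjamini-Hochberg-adjusted 0.05, and 1 of the 9 member probes did, the second H2-K1 probe (adjusted p = 0.019). Fiber E9.6, whose spot was dark, is the only fiber of mouse 6, and without it the same test gave an adjusted p of 1. For the 8 other probes the adjusted p was 0.71 or higher. The lowest belonged to the 3′ probe of H2-K1, which read 3.06, 3.53 and 3.89 in the 3 fibers of mouse 4 and 2.79, 2.95 and 5.88 in those of mouse 2, while the other 7 mice read between 4.91 and 6.87. Fibers S9.4 of mouse 4 and S14.2 and S15.2 of mouse 2 had 0 of 10 spots of this probe well above background. Their readings therefore lie near background. S11.3, E7.7 and E15.3 also had 0 of 10 such spots, yet read 5.47, 5.13 and 5.03. S6.4 and E10.4 of mouse 4 had 9 and 10 such spots but read 3.53 and 3.89. That flag therefore does not separate the low fibers from the others. The probe was not called for mouse, and what set these fibers apart was not tested.

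For slide, 10.84% of all probes passed and 1 member did, Tap2 (limma F-test, adjusted p = 0.0021). Tap2 averaged 7.02 and 7.44 on slides 1 and 3 but 5.47 on slide 2 and 4.74 on slide 5, which holds type 2B fibers alone. The 4 fibers in which Tap2 was not well above background, S11.3, E7.7, E12.5 and E15.3, were all on slides 2 and 5. The adjusted p of the 8 other probes was 0.29 or higher. The difference of Tap2 between types with slide in the fit was 0.20, on the other side of 0 from that without it.

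B2m, Tbp and Txn1 were reference genes for quantitative PCR in the study. Its figure legends name Txn1 for single myofibers, and they name B2m for cultured myoblasts and for no assay of fibers. The spread of these genes between fibers of 1 type was set against that of the 16143 probes well above background in all fibers. B2m had a within-type SD of 0.64, at percentile 55.7 of these probes, whose median SD was 0.60. Txn1, a thioredoxin, had an SD of 0.46 (percentile 24.7) and a type difference of -0.21 ± 0.22 (SE). The 2 probes of Tbp, the TATA-binding protein, were not well above background in every fiber and had SDs of 0.70 and 0.96, with type differences of -0.48 ± 0.31 and 0.17 ± 0.40. Calr was steadier (SD 0.51, percentile 35.4), Pdia3 less so (0.73, percentile 67.2), and H2-D1 and Tapbp were among the most variable (1.15 at percentile 90.9 and 1.40 at percentile 96.5). With E9.6 left out, the second H2-K1 probe had an SD of 0.84.

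**Figure D4:**
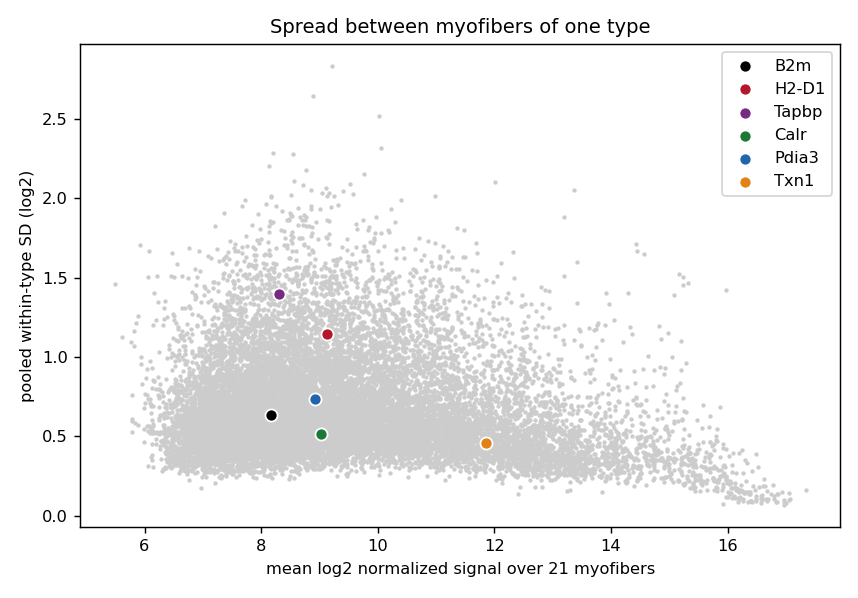
Pooled within-type SD against mean log2 signal over the 21 myofibers for the 16143 probes well above background in all of them (grey), with 5 member probes and Txn1 in color. B2m (SD 0.64) lies in the middle of the cloud, Txn1 (0.46) lower, and H2-D1 (1.15) and Tapbp (1.40) near its upper side.

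Between members, correlations among fibers of a type ranged from negative to positive. Over the 21 fibers with type means subtracted, the highest correlation between 2 members was between H2-D1 and the 3′ probe of H2-K1 (r = 0.607), followed by H2-D1 with Pdia3 (0.443). Without the dark spot of E9.6, H2-D1 and the second H2-K1 probe went from 0.0275 to 0.59, and that probe and Tap2 from 0.186 to 0.552. B2m and H2-D1 correlated at -0.198, and B2m and Calr at 0.399. Tap1 and Tap2, which form 1 transporter, correlated at -0.387, with Tap1 near background in most fibers. These r values share arrays and amplification and are given as descriptions. The probes most like B2m by the same measure were Rpl17-ps3 (r = 0.895), Rbm18 (0.871), an unnamed probe, A_55_P2155572 (0.868), Rpl17 (0.863) and NAP030482-1 (0.851), where 99% of probes had an r under 0.666.

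Those most like the second H2-K1 probe over all 21 fibers rested on E9.6: the r of the first, an unnamed non-coding RNA probe, was 0.926 and became 0.519 without that fiber, and that of Snf8 went from 0.856 to 0.184. Without E9.6, a choice made after the values were seen, the 5 most like it were EG547347 (r = 0.924), LOC68395 (0.921), H2-T23 (0.907), NP883496 (0.898) and an unnamed non-coding RNA probe (0.87). The first 4 lie on chromosome 17 (mm9), at chr17:36193272-36193331, chr17:35565253-35565312, chr17:36167338-36167574 and chr17:34112449-34112517, between or beside the H2 genes.

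Beyond the members, 99 further genes of the class I pathway were taken by list, of which 95 were on the array and 88 were tested, with 114 probes. At the Bonferroni threshold 1 gene was called, Ifnar2, lower in type 2B. At a Benjamini-Hochberg-adjusted 0.05, 8 genes were higher and 4 lower in type 2B, and 13 of 114 probes (11.4%) passed, against 7.57% of all probes. Their median difference was -0.03, against 0.03 over all probes.

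Among 22 tested heavy chains and relatives, 4 were higher in type 2B at the Benjamini-Hochberg threshold and 0 were lower: H2-T10, H2-Q2, H2-Q6 and H2-T9, of the non-classical Q and T regions. The median of the list's 27 probes was 0.41, and 14.8% of them passed, against 7.57% of all probes. H2-T10 read 2.67, 3.54 and 4.15 (lowest, median, highest) in type 1 and 2.38, 6.63 and 10.97 in type 2B, with 9 of 10 type 2B fibers above every type 1 fiber and the remaining one below them all. Its fitted difference was 3.19 ± 0.69 (SE; limma adjusted p = 0.0034), but H2-T10 was well above background in 4 of 11 type 1 and 9 of 10 type 2B fibers, and the size came down to 1.53 with normexp. H2-Q2 differed by 2.25 ± 0.64 (adjusted p = 0.029), with 2 type 2B fibers above the type 1 range, and its second probe, A_51_P425048, by 2.04 ± 0.65 (adjusted p = 0.057). As the H2 genes share sequence, the signals of their probes cannot be fully separated by gene.

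Peptide supply had 11 tested genes, with 0 higher and 2 lower in type 2B, both of them aminopeptidases. Npepps, the puromycin-sensitive aminopeptidase, lay between 9.23 and 10.31 in type 1 and between 7.97 and 9.20 in type 2B, without overlap, a difference of -0.96 ± 0.19 (adjusted p = 0.0016). Its second probe, A_52_P479500, differed by -0.82 ± 0.36 and was not called (adjusted p = 0.21). Lnpep, also known as IRAP, which trims peptides in endosomes, differed by -1.38 ± 0.36 (adjusted p = 0.017). The inducible proteasome subunits were not called: Psmb8 differed by 0.07 ± 0.31, Psmb9 by 0.30 ± 0.25 and Psmb10 by 0.62 ± 0.37.

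Of 14 genes of loading and folding, 1 was called, and 5.26% of the list's 19 probes passed, against 7.57% of all probes. The called gene was Sec61b, a subunit of the protein-conducting channel of the endoplasmic reticulum. It read 8.05, 8.74 and 10.46 in type 1 and 10.34, 11.19 and 11.68 in type 2B, with 9 type 2B fibers above every type 1 fiber and a difference of 1.91 ± 0.33 (adjusted p = 0.00032). A second Sec61b probe, A_66_P112593, differed by 0.19 ± 0.26 and was not called. Canx, the membrane-bound relative of calreticulin, differed by -0.98 ± 0.31 and narrowly missed the threshold (adjusted p = 0.06).

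The 18 regulators held 2 called genes, both higher in type 2B. Of the list's 26 probes 7.69% passed, close to the 7.57% of all probes. Irf8, an interferon regulatory factor best known from blood cells, differed by 2.24 ± 0.61 (adjusted p = 0.021) and 7 of 10 type 2B fibers exceeded every type 1 fiber. Nfyb, a subunit of the CCAAT-binding factor, differed by 1.66 ± 0.51 at 1 probe (adjusted p = 0.047), while its 2 other probes differed by 0.36 ± 0.42 and 0.63 ± 0.63. Nlrc5, the class I transactivator, had 1 tested probe, with a difference of 0.26 ± 0.25, and was not called.

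Interferon reception held the single Bonferroni call. At the Benjamini-Hochberg threshold 36.4% of its 11 probes passed, against 7.57% of all probes. Ifnar2, 1 of 2 chains of the type I interferon receptor, read 4.04, 5.60 and 6.49 in type 1 and 1.62, 2.14 and 4.88 in type 2B. It was well above background in 8 of 11 and 1 of 10 fibers, 9 type 2B fibers lay below every type 1 fiber, and the fitted difference was -2.88 ± 0.41 (Bonferroni-adjusted p = 0.0162). Since 9 of 10 type 2B fibers were not well above background, its size depends on how dim spots are treated, and it was -2.17 with spots below background missing and -0.75 with normexp background correction. The call was lost, with the direction kept, in 19 of 42 alternatives, among them leaving out mouse 3, 4, 5, 6, 7 or 9, or fiber E10.4, E9.6, E7.7, E12.5 or E15.3, slide as a block (-2.96) and both of these treatments of dim spots. Ifnar1, the partner chain, passed the Benjamini-Hochberg threshold at 2 probes, with fitted differences of -1.85 ± 0.49 and -1.45 ± 0.39 (adjusted p = 0.02 and 0.021), while another, A_55_P2438722, differed by -1.35 ± 0.45 and was not called (adjusted p = 0.075). The 2 called Ifnar1 probes were well above background in 4 of 11 and 2 of 10, and in 7 and 3 fibers, and the first difference was -0.40 with normexp. Usp18, which damps signalling at Ifnar2, was higher in type 2B (1.18 ± 0.35, adjusted p = 0.036). Of 14 tested interferon-stimulated genes, with 17 probes, 0 passed Benjamini-Hochberg in limma. Of these genes, counted where any probe passed, 4 were at an unadjusted p under 0.05, where 18.5% of all probes were. The lowest belonged to Igtp, a GTPase (2.60 ± 0.99), and Ifi35 (-0.84 ± 0.35), with adjusted p of 0.13 and 0.18.

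**Figure D5:**
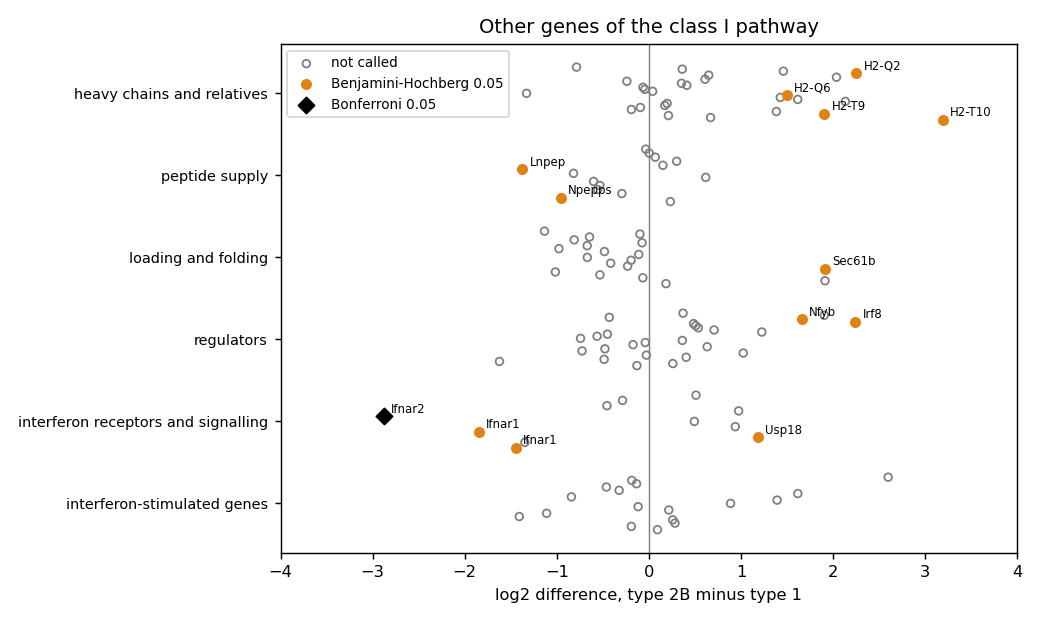
Log2 difference, type 2B minus type 1, of the 114 tested probes of other class I pathway genes by list (open grey, not called; orange, Benjamini-Hochberg-adjusted 0.05; black diamond, Bonferroni-adjusted 0.05). Ifnar2 at -2.88 is the single Bonferroni call, and the called heavy chain genes lie to the right of 0 while Lnpep and Npepps lie to its left.

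Other cells that may cling to a fiber were followed with marker lists. For class II presentation, 3 of 6 genes were well above background in at least 50% of the fibers of each type, the summed level was 7.40 to 7.94 in type 1 and 7.77 to 10.67 in type 2B, and H2-Aa was well above background in 2 and 1 fibers. For leukocytes 8 of 9 genes on the array were well above background in each type, Ptprc in all fibers. The sums were 15.54 to 16.41 and 12.63 to 16.35, with a median of 16.2 in each type, and rest on 1 very bright Itgam probe. That probe read at least 15.63 in type 2B wherever it had a value. The sum of 12.63 therefore lacks it and cannot be compared with the others. For endothelium 4 and 3 of 7 genes were well above background, with sums of 10.65 to 11.85 and 10.57 to 12.04, and Cdh5 in 2 and 0 fibers. These sums rest on 1 bright Kdr probe. The 6 tested endothelial probes all had negative differences and were not called. The largest were Tek (-1.78 ± 0.56, limma adjusted p = 0.052) and the other Kdr probe (-1.71 ± 0.83). For connective tissue 2 of 6 genes were well above background in each type, with sums of 8.15 to 12.22 and 7.75 to 9.44, and Col1a1 in 4 and 1 fibers. The red cell list summed to 6.98 to 13.02 and 7.67 to 8.40, with Hba-a1 in all fibers, and the satellite cell list to 10.50 to 13.03 and 9.31 to 12.17, with Pax7 in 8 and 2 fibers. At the Benjamini-Hochberg threshold 0 probes of the class II, leukocyte, endothelial and red cell lists differed between types. Of the connective tissue list 1 probe, Col3a1, was lower in type 2B (-2.45 ± 0.48, adjusted p = 0.0014), and of the satellite cell list 3 probes of Ncam1 were (-2.48 ± 0.36, -2.503 ± 0.56 and -2.08 ± 0.48). The Schwann cell list summed to 4.6 to 7.45 and 4.58 to 7.501, with 0 probes called, and of 4 adult muscle genes, all well above background in both types, Ckm was higher in type 2B (1.23 ± 0.25, adjusted p = 0.0019). The part of such cells in the member levels was not tested.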

How the data were processed

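RNA of 21 single myofibers was amplified with the TransPlex WTA2 kit, labelled with Cy3 and hybridised to 1 Agilent SurePrint G3 array each. The authors deposited the scanner output of Agilent Feature Extraction 10.7.3.1, whose processed signal is a linear intensity per spot, background-subtracted and detrended within the array. The positive-and-significant, well-above-background and outlier flags deposited beside it were used as well. A deposited table of processed values held no values for these genes and was not used.

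The intensity was quantile-normalized over arrays, log2-transformed and averaged over spots of 1 probe. Spots flagged as outliers were left out. Spots below background kept their value here, whereas the study set them to missing, which was run as an alternative. Probes flagged positive in at least 50% of the fibers of a type were tested, 46922 of 55681. limma 3.58.1 (R 4.3.3) fitted type with mouse as a random block (consensus correlation -0.0175). Calls were made at 0.05 after Bonferroni, as in the study's methods, or after Benjamini-Hochberg, and mouse and slide were tested by F-tests in fits with type. The study's permutation t-test was replaced by limma. A probe is written as well above background where at least 50% of its spots carry the flag. SE is that of limma's difference. The code was tested on simulated data. Fibers of 1 mouse are not separate animals, so p-values measure mainly the spread between fibers. The number of arrays limits the precision. Members and gene lists were chosen with earlier results of these data known. Text names every member, the called pathway genes, at most 2 others a list by smallest p, and the 5 probes most like B2m and H2-K1; H2-Q6, H2-T9, Usp18, Nlrc5, the inducible proteasome subunits and further probes of named genes were added after their values were seen. Replicate numbers were shared by both types, and same-numbered fibers had a median correlation of -0.028 (10 pairs), so they do not pair them. Probe coordinates are mm9, from the array annotation; promoters are GRCm38.p6.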

Additional observations from a re-analysis of the deposited data

Results flagged for a closer look

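In the 10 type 2B fibers, where a single value far from the rest was looked for in each of the 9 probes, 2 were found, whereas chance flags about 5% of such groups. The second H2-K1 probe (A_55_P2049647) read 1.75 in fiber E9.6, and the gap to the next fiber, at 8.29, was 0.693 of the whole range. That spot and 5 of its 20 neighbours were darker than 0.6 of their local background. Pdia3 read 10.05 in fiber E9.5, and the gap to the next fiber was 0.495 of the range. Without E9.5 the Pdia3 difference was -1.07, against -0.90 with it.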

How the results depend on the processing

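B2m and Pdia3 kept a negative and H2-D1 a positive difference in all 14 alternatives run for them, from -1.73 to -0.996, from -1.42 to -0.57 and from 0.37 to 2.83. Values past the spread between fibers came from single slides: H2-D1 was 0.37 within slide 2 and 2.83 within slide 3, the second H2-K1 probe 1.97 and Tap2 1.06 within slide 3, Tap1 -1.08 within slide 2, and Tapbp -0.40 within slide 1 and 2.87 within slide 2. Slides 2 and 3 alone, E9.6 alone and S6.4 with E9.6 were chosen after seeing the data. Leaving out 1 mouse or 1 fiber gave B2m from -1.37 to -1.12, H2-D1 from 1.31 to 2.04, Pdia3 from -1.07 to -0.68, Tapbp from 0.66 to 1.44, Calr from -0.31 to -0.10, the 3′ H2-K1 probe from 0.40 to 1.18, the second H2-K1 probe from -0.64 to 0.57, Tap1 from -0.19 to 0.44 and Tap2 from -0.39 to 0.13; the correlation was held at that of all fibers. The filter on spots well above background left no value for Tap1.

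The count of other pathway genes called by Bonferroni, 1 (Ifnar2), became 0 with 75th percentile scaling, normexp, spots below background missing, mouse as a fixed block, slide as a block, the replicate block, slide 1 alone, and without S6.4 and E9.6. It was 0 or 1 when 1 mouse or fiber was left out. It was 12 with Benjamini-Hochberg, and 0 and 2 with the methods' t-test under Bonferroni and Benjamini-Hochberg. The 12 calls became 3 to 15 in the other fits over several slides, and 1, 0 and 0 within slides 1, 2 and 3. Over all probes, the 672 Bonferroni calls became 181 with mouse as a fixed block, 302 without mouse 3, 331 with the replicate block, 355 with means per mouse, and 89, 0 and 0 within slides 1, 2 and 3. The cause of these changes was not tested. The replicate number as a block gave B2m -1.17 and H2-D1 1.61 and left 11 of the 12 Benjamini-Hochberg calls in number. The mouse call became 0 with normexp, with Bonferroni and without E9.6, and the slide call became 0 with mouse added as a fixed factor and with Bonferroni. Tap1 and the 3′ H2-K1 probe were not well above background in 13 and 9 of the 21 fibers, which limits what can be seen of them.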
